A study of Mus musculus with 10 samples.

Results

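The mitochondrial carriers are the proteins that move metabolites, nucleotides, cofactors and ions across the inner mitochondrial membrane, and their transcripts were followed here in mouse hepatocytes exposed to free fatty acids (FFAs). The members are the genes whose symbol is Slc25a followed by a number, without pseudogenes, together with the uncoupling proteins Ucp1, Ucp2 and Ucp3 and both subunits of the mitochondrial pyruvate carrier, Mpc1 and Mpc2. Of the 18055 genes listed in any library, 50 were members. Slc25a41 and Slc25a54 also meet the rule but were listed in no library. The rule goes by name and not by values, though it was chosen with earlier results of these data known.

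Transcripts were counted by RNA sequencing in primary hepatocytes, isolated from wild-type C57BL/6 mice by collagenase perfusion and plated on collagen I, in 5 groups of 2 libraries each. Cells received vehicle (Vehicle), 200 μM palmitate for 24 h (PA), 12 μM linoleate for 24 h (LA), or either FFA after 1 h with 0.4 NU/mL Neurotropin (PA+NTP and LA+NTP), and no analysed library held NTP without an FFA. Palmitate is a saturated and linoleate a polyunsaturated fatty acid, given here at different concentrations, and Neurotropin is an analgesic preparation of animal origin. The labels do not say whether the 2 libraries of a group came from separate animals or cultures, so the p-values below measure the spread between libraries, which may be technical.

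The inner mitochondrial membrane is closed to most charged metabolites, and each carrier gives a particular set of them a way across, usually by exchanging one substrate for another. Most carriers share a fold built of repeated pairs of membrane-spanning helices, whereas the pyruvate carrier belongs to a separate family of small proteins that pair up. In the liver these transporters connect the cytosol with the matrix steps of fatty acid oxidation, the urea cycle, gluconeogenesis and ketone body and lipid synthesis.

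The depth ranged from 13142588 expected counts, RSEM's estimates of the reads per gene, in PA replicate 1 to 60046937 in LA+NTP replicate 2. Levels are given in FPKM, which scales counts to transcript length and library size. All 8 hepatocyte markers were listed, led by Alb at 1929 to 2818 FPKM, but the urea cycle enzyme Cps1 was at 1.52 to 4.61 FPKM. The summed hepatocyte markers were 3426 to 3591 FPKM in Vehicle, 2503 to 2720 in PA, 2974 to 3277 in PA+NTP, 3476 to 3501 in LA and 4015 to 4225 in LA+NTP. Of the 8 markers 3 (Apoa1, Ttr and Hnf4a) were called lower in PA than in Vehicle, and Apoa1 was called higher in LA+NTP than in LA. The 6 stellate cell markers summed to 18.2 to 18.3 FPKM in Vehicle, 11.4 to 12.7 in PA, 14.7 to 16.9 in PA+NTP, 14.2 to 15.7 in LA and 20.3 to 20.5 in LA+NTP. Of these, 4 were called lower in PA and Col1a1 lower in LA, while against the FFA alone Col1a1 and Pdgfrb were called higher in PA+NTP and Col1a1 and Des higher in LA+NTP. Col1a1, Lrat and Pdgfrb, all called lower in PA, were scarce, at 0.25 to 2.01 FPKM. Of all genes tested, 8.92% were called lower in PA and 7.11% in LA, and 8.74% and 11.7% higher in the NTP comparisons. The 5 endothelial markers summed to 37.4 to 37.6 FPKM in Vehicle, 27.6 to 29.1 in PA, 29.8 to 34.1 in PA+NTP, 28.6 to 32.0 in LA and 38.0 to 40.2 in LA+NTP, and none of them was called in the 4 main comparisons. Stellate and endothelial sums were lower with an FFA alone and higher with NTP added, and their part in the carrier results was not tested. In these bulk samples fewer cells of a type and less RNA per cell cannot be told apart. A property of the libraries touches every comparison below. Over 13925 genes, a gene's deviation from its mean over the libraries rose with transcript GC content in the Vehicle, PA+NTP and LA+NTP libraries (Spearman rho 0.346 to 0.576) and ran the other way in the PA and LA libraries (-0.575 to -0.473). The GC trend thus goes with an FFA given without NTP. In all 4 main comparisons, those with NTP included, it cannot be told apart from the treatment compared. Each comparison was therefore fitted again after a smooth trend on GC content was removed from each library. Values of that fit are given beside many of the changes but not all, and marker calls are as fitted only.

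The promoters of 4 carriers that carry the main changes are shown as reference sequence, from RefSeq on GRCm38.p6, 250 bases before to 50 after a transcription start, 5′ to 3′ on the strand of the gene. Capitals mark matches on either strand to any of 7 short motifs. The Sp1-type GC box was searched as GGGCGG. The CCAAT box was searched under the letters of its name. The E-box, bound by factors such as Myc and Usf, was searched as CACGTG. The cyclic AMP response element was searched as TGACGTCA. The core of the site of NRF1, a regulator of nuclear genes for mitochondria, was searched as GCATGCGC, the element of the estrogen-related receptors (ERR) as TCAAGGTCA, and the FOXO element, bound by fasting-activated factors, as TGTTTAC. Slc25a23 lies at chr17:57059793-57060092 on the minus strand, Ucp2 at chr7:100493108-100493407 on the plus strand, Slc25a42 at chr8:70212232-70212531 on the minus strand and Slc25a47 at chr12:108850879-108851178 on the plus strand.
Slc25a23: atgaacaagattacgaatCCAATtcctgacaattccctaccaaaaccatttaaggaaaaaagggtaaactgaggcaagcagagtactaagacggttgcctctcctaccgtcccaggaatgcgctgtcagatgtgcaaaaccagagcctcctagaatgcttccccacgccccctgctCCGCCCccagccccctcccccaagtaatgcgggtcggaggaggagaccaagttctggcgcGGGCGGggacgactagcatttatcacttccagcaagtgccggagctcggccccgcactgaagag
Ucp2: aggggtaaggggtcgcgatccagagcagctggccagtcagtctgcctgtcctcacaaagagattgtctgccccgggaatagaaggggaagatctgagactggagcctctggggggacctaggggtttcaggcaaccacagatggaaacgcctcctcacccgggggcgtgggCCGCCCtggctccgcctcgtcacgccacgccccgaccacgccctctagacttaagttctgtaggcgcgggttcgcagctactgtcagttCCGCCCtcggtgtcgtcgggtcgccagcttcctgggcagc
Slc25a42: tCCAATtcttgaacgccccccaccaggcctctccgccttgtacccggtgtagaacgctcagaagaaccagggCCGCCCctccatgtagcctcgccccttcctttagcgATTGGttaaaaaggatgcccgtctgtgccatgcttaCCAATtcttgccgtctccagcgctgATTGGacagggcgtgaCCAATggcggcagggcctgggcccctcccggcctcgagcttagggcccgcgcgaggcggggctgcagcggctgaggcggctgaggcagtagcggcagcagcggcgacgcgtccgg
Slc25a47: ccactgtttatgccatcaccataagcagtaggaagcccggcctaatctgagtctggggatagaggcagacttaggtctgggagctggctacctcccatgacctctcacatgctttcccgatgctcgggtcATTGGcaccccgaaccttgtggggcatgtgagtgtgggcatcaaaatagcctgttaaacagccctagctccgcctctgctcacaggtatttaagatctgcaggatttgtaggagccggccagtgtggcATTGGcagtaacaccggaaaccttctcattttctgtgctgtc

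The Slc25a23 window held 2 GC boxes and 1 CCAAT box, the Ucp2 window 2 GC boxes, the Slc25a42 window 1 GC box and 5 CCAAT boxes, and the Slc25a47 window 2 CCAAT boxes and no GC box. Of the 40 members with a window in the table, 33 (82.5%) held a GC box, against 38.2% of the 27025 genes with a window. A CCAAT box was found in 52.5% of these members and 41.1% of all genes, and an E-box in 17.5% and 8.1%. The cyclic AMP response element was matched in 2 of the 40 members and 2.0% of all genes, and the NRF1 core in 1 member and 3.0%. The letters of the ERR element and the FOXO element occurred in none of the member windows and in 0.5% and 4.1% of all genes. Member windows were also richer in GC, with a median of 59.7% against 52.7% over 32851 windows, and the GC box is itself made of G and C. The 27025 genes also include genes listed in no library here, whereas the members were all listed, so the sets are unlike. A match says only that these letters occur in the window.

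In Vehicle, carrier expression was concentrated in a few genes. Slc25a5, an adenine nucleotide translocator that exchanges ATP for ADP, led with 224 ± 0.127 FPKM (SD, n = 2). It was followed by the phosphate carrier Slc25a3 at 206 ± 3.05 and the glutathione carrier Slc25a39 at 195 ± 2.86. Mpc1 came next with a library range of 149 to 152, well apart from Slc25a30, a relative of the uncoupling proteins, at 71.4 ± 0.877. These 5 genes held 60.8% and 61.2% of the summed carrier FPKM in the Vehicle libraries and 59.9% to 63.0% in the other libraries. Neighbours in the order from rank 1 to rank 6 had separate library values, whereas Slc25a23 and Slc25a1, at 61.5 and 60.6 FPKM, overlapped. Mpc2 (39.5 FPKM) overlapped both of its neighbours, Slc25a24 (43.9) and the mitoferrin Slc25a37 (38.6).

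Of the 50 members, 4 had a Vehicle mean of at least 100 FPKM, 18 lay from 10 to under 100, 15 from 1 to under 10, 9 above 0 and under 1, and 4 at 0. The members at 0 in Vehicle were Ucp1, the uncoupling protein of brown fat, Ucp3, known from muscle, Slc25a31, the translocator of testis, and Slc25a2, an ornithine carrier. Their counts over all 10 libraries were 2, 7, 9 and 2. Slc25a18, a glutamate carrier, had 43 counts in all. These 5 members did not pass the filter on low counts, and the other 45 were tested.

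**Figure D1:**
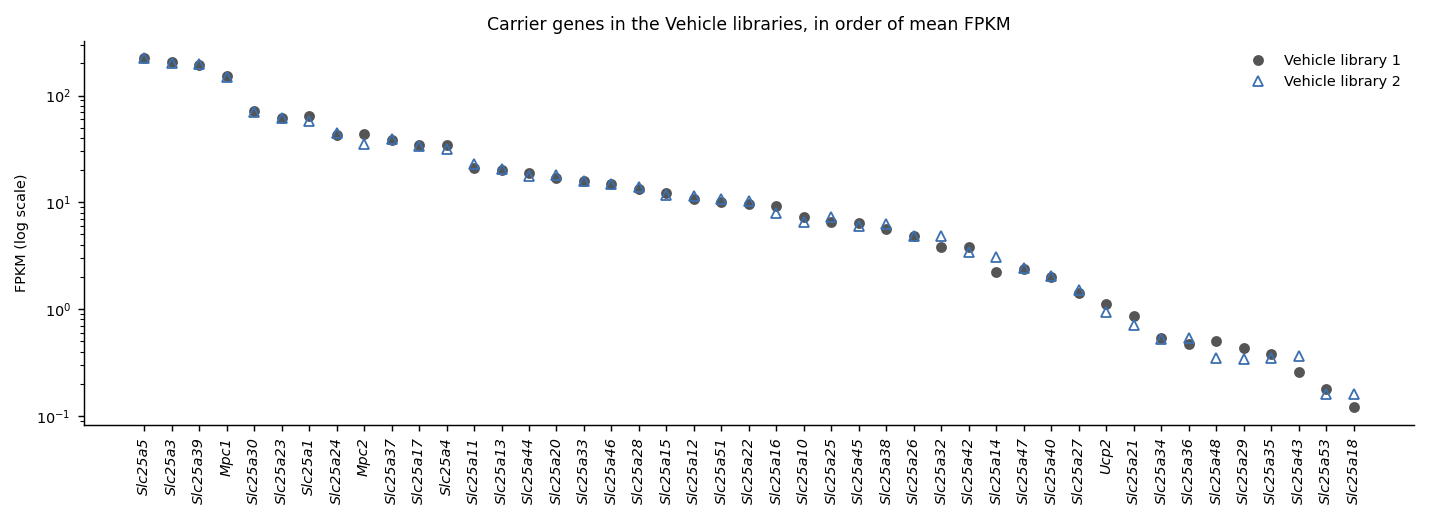
FPKM of 45 carriers listed in Vehicle, on a log axis, in order of their mean; circles and triangles are the 2 Vehicle libraries. Slc25a5, Slc25a3, Slc25a39 and Mpc1 lie above 100 FPKM, and 9 carriers lie under 1.

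The summed FPKM of the carriers was 1380 and 1397 in Vehicle, 1290 and 1362 in PA, 1324 and 1341 in PA+NTP, 1309 and 1419 in LA, and 1424 and 1434 in LA+NTP, or 0.255% to 0.283% of all FPKM. A gene was called changed at an adjusted p under 0.05 (edgeR quasi-likelihood F test, Benjamini-Hochberg over 14097 genes) and a fold change of at least 1.5. In PA against Vehicle 1 carrier was called higher and 4 lower, which is 2.22% and 8.89% of the 45 tested, against 6.00% and 8.92% of all genes. In LA against Vehicle none was called higher and 3 (6.67%) lower, against 3.53% and 7.11%. In PA+NTP against PA 5 (11.1%) were called higher and 3 (6.67%) lower, against 8.74% and 5.11%. In LA+NTP against LA 5 (11.1%) were called higher and 1 (2.22%) lower, against 11.7% and 7.57%. Direction by direction, the carriers' shares lay both above and below those of all genes, and the medians of the log2 fold changes were 0.00, 0.04, -0.05 and -0.02 in the 4 comparisons, against -0.01, -0.01, 0.01 and 0.01 over all genes. What follows concerns which carriers moved.

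In all, 10 carriers were called in at least 1 of these comparisons, with 22 calls. Without the fold threshold the test alone passed 23 carriers in PA (51.1%, against 45.5% of all genes) and 21 in LA (46.7%, against 41.3%). It passed 28 in PA+NTP against PA (62.2%, against 44.7%) and 26 in LA+NTP against LA (57.8%, against 51.5%). Each NTP comparison shares its FFA libraries with the comparison of that FFA with Vehicle, so opposite signs in the pair are not independent, and the values are given side by side. With the GC trend removed, 5, 1, 3 and 2 carriers were called in the 4 comparisons, against 8.75%, 3.45%, 6.65% and 6.14% of all genes, and 9 of the 22 calls were kept.

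**Figure D2:**
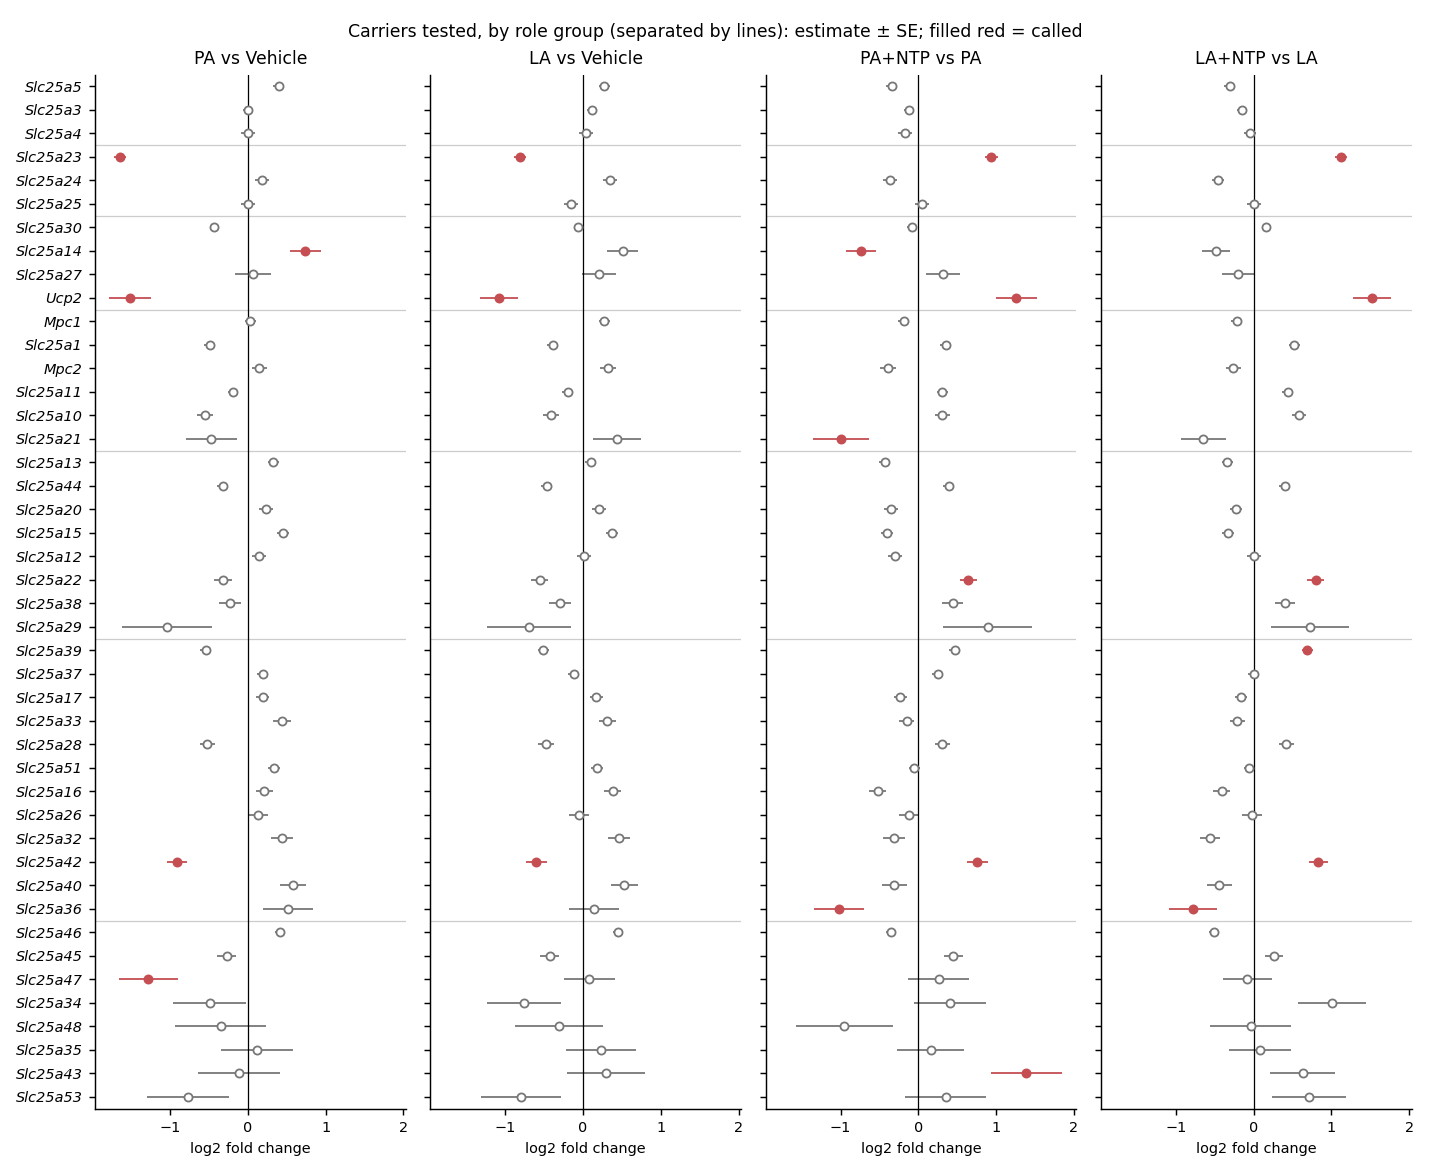
Log2 fold change with its SE for 44 of the carriers tested, in 4 comparisons, grouped by role and ordered by Vehicle level within a role; filled red points were called. Slc25a23, Ucp2 and Slc25a42 are filled in each panel, to the left of 0 for each FFA against Vehicle and to the right for NTP with an FFA against that FFA.

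The ATP-Mg/phosphate carriers move adenine nucleotides into or out of the matrix under the control of calcium and so set the size of the matrix pool. Slc25a23, one of them, gave the smallest adjusted p of any carrier in each of the 4 comparisons. Its FPKM was 61.6 and 61.4 in Vehicle, 21.1 and 17.9 in PA, 41.6 and 35.4 in PA+NTP, 34.0 and 34.2 in LA, and 75.3 and 77.2 in LA+NTP. The 2 libraries of every group lay close together, and of the groups only PA+NTP and LA came near each other. Slc25a23 fell in PA by 1.64 on the log2 scale (SE 0.08, adjusted p = 2.06e-08), a 3.11-fold change, and in LA by 0.81 (SE 0.08, adjusted p = 5.71e-06). It was higher in PA+NTP than in PA by 0.94 (adjusted p = 1.53e-06) and in LA+NTP than in LA by 1.12 (adjusted p = 1.61e-07). In PA+NTP it stayed below Vehicle (log2 fold change -0.70, adjusted p = 8.73e-05), while in LA+NTP the difference from Vehicle of 0.32 was not called. Slc25a23 has a GC content of 56.4%, and with the GC trend removed the log2 fold changes were -1.31 in PA, -0.44 in LA, 0.57 in PA+NTP against PA and 0.68 in LA+NTP against LA. The calls for PA and for LA+NTP against LA were kept, and the other 2 fell under the fold threshold at adjusted p values of 0.00173 and 1.84e-04. A gene on the opposite strand, Gm17168, overlaps an exon of Slc25a23, and the counting is not stated to use strand.

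The other ATP-Mg/phosphate carriers were not called. Slc25a24 lay between 36.5 and 51.6 FPKM outside LA, where it was higher, and passed the test without the fold threshold in LA (0.35, adjusted p = 0.00425), PA+NTP against PA (-0.36, adjusted p = 0.00324) and LA+NTP against LA (-0.46, adjusted p = 3.71e-04), each with the sign opposite to Slc25a23. None of these Slc25a24 differences passed with the GC trend removed, at adjusted p values of 0.485, 0.290 and 0.314. Slc25a25, a further calcium-regulated form, measured 6.54 and 7.31 FPKM in Vehicle, 6.93 and 6.69 in PA, 7.06 and 7.58 in PA+NTP, 6.10 and 5.91 in LA, and 6.20 and 6.19 in LA+NTP. As fitted, its log2 fold changes lay between -0.16 and 0.05 in the 4 comparisons, and PA overlapped Vehicle. With the GC trend removed they were 0.28 in PA (adjusted p = 0.0381) and 0.15 in LA (adjusted p = 0.320). Against the FFA alone they were then -0.27 in PA+NTP (adjusted p = 0.0447) and -0.37 in LA+NTP (adjusted p = 0.00879). The ratio of Slc25a24 to Slc25a23 in FPKM was 0.714 ± 0.0252 in Vehicle (SD, n = 2), 2.53 ± 0.513 in PA, 1.04 ± 0.225 in PA+NTP, 1.60 ± 0.0313 in LA and 0.531 ± 0.0395 in LA+NTP. These ratios are of the FPKM as deposited, with no GC trend removed. As fitted, the log2 ratio differed by 1.82 in PA and 1.16 in LA from Vehicle, by -1.30 in PA+NTP from PA and by -1.59 in LA+NTP from LA, and with the GC trend removed by 1.26, 0.54, -0.70 and -0.81.

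**Figure D3:**
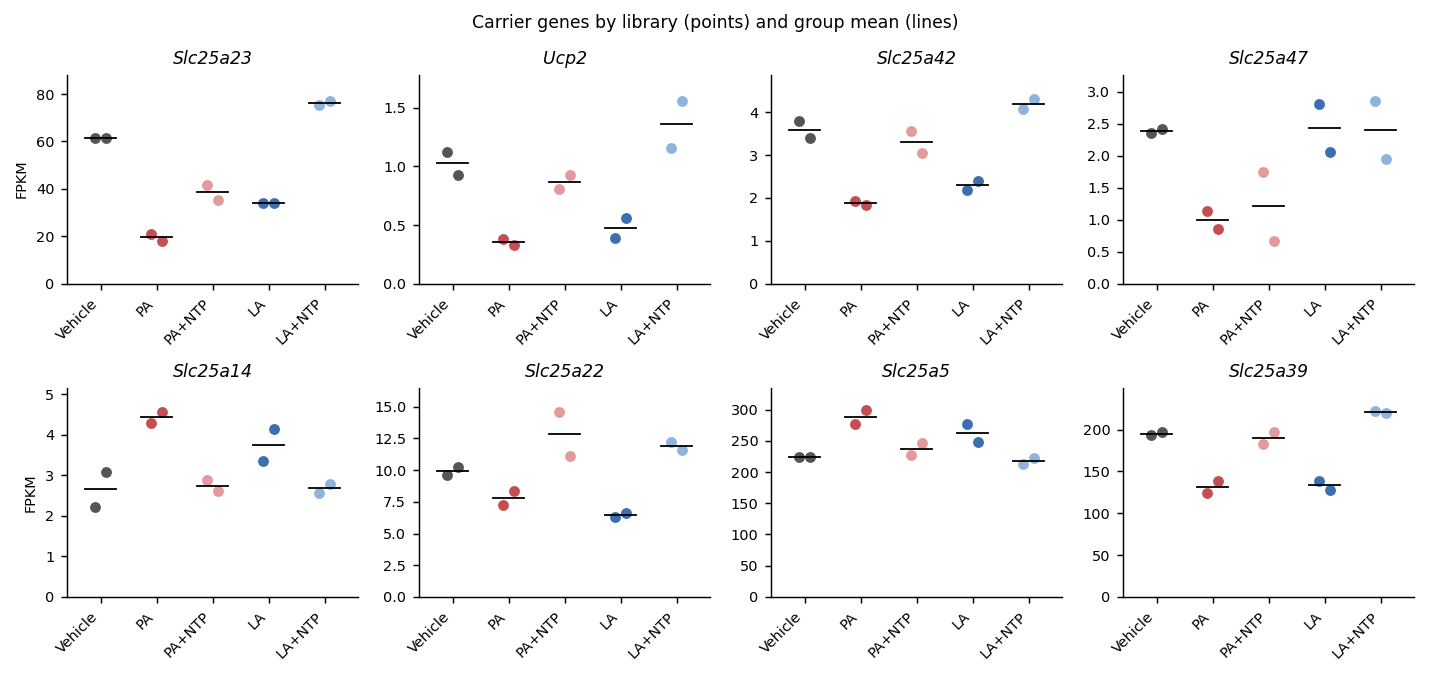
FPKM of 8 carriers in each library (points) with group means (lines), each axis starting at 0. Slc25a23, Ucp2 and Slc25a42 lie lower in PA and LA than in Vehicle, Slc25a47 lies at 0.86 to 1.14 FPKM in PA, and Slc25a14 and Slc25a5 lie higher in PA.

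The uncoupling proteins let protons or metabolic anions leak across the inner membrane, and Ucp2 is the member found in most tissues. In the intact liver Ucp2 is known mainly from macrophages, and in hepatocytes from fatty liver. Its FPKM was 1.12 and 0.93 in Vehicle, 0.38 and 0.33 in PA, 0.81 and 0.93 in PA+NTP, 0.39 and 0.56 in LA, and 1.16 and 1.56 in LA+NTP, from 21 to 391 counts per library. Every PA and LA library was below every Vehicle and NTP library. Ucp2 fell in PA by 1.51 on the log2 scale (SE 0.27, adjusted p = 3.77e-04) and in LA by 1.08 (SE 0.25, adjusted p = 0.00307). It was higher in PA+NTP than in PA by 1.26 (SE 0.26, adjusted p = 0.00135) and in LA+NTP than in LA by 1.52 (SE 0.24, adjusted p = 9.54e-05). Alone among the carriers called in all 4 comparisons, it kept each call with the GC trend removed, at -1.24, -0.80, 0.96 and 1.17. Ucp2 is scarce, and a filter at a mean FPKM of 1 leaves it untested. Under limma on log2(FPKM + 1), which shrinks changes of scarce genes, the calls in PA (-0.58), LA (-0.46) and PA+NTP against PA (0.46) missed the fold threshold. The call in LA+NTP against LA was kept there. The LA call was lost without LA replicate 1 (-0.82, adjusted p = 0.0502).

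The summed macrophage markers were 217 to 218 FPKM in Vehicle, 218 to 252 in PA, 279 to 312 in PA+NTP, 139 to 143 in LA and 193 to 206 in LA+NTP, and all 7 markers were listed. Most of this sum was Cd68 (122 to 287 FPKM), while the Kupffer cell marker Clec4f lay between 0.03 and 0.29. Marco and Lyz2 were called higher and Cd5l lower in PA, Cd68 was called lower in LA, and Cd5l was called higher in PA+NTP than in PA. The part of macrophages in the Ucp2 result was not tested. Dnajb13, which overlaps Ucp2 on the opposite strand, had 63 counts over all libraries.

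Slc25a14, a brain relative of the uncoupling proteins, measured 2.23 and 3.09 FPKM in Vehicle, 4.29 and 4.57 in PA, 2.88 and 2.61 in PA+NTP, 3.35 and 4.15 in LA, and 2.57 and 2.78 in LA+NTP. Both PA libraries lay above all others. It was the single carrier called higher in PA (0.74, SE 0.20, adjusted p = 0.00657), and it was lower in PA+NTP than in PA by 0.74 (adjusted p = 0.00575). The GC trend hardly bore on Slc25a14, at 0.72 and -0.73 after its removal. The PA call was lost without Vehicle replicate 1 (0.54, adjusted p = 0.0763) or PA replicate 2 (0.70, adjusted p = 0.0558), and the PA+NTP call without PA replicate 2 (-0.70, adjusted p = 0.0524).

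Slc25a30, the most abundant relative, was 72.0 and 70.8 FPKM in Vehicle, 50.7 and 52.7 in PA, 51.0 and 50.8 in PA+NTP, 66.5 and 65.9 in LA, and 76.5 and 75.4 in LA+NTP. The 4 libraries with palmitate lay below all the others. In PA its log2 fold change of -0.43 (SE 0.06, adjusted p = 3.33e-05) missed the fold threshold and was -0.56 with the GC trend removed, and PA+NTP showed no detectable difference from PA (-0.08, adjusted p = 0.266). Slc25a27, a further relative, ranged from 1.37 to 2.38 FPKM and passed in none of the 4 comparisons. Ucp1 was listed in 1 library, at 0.05 FPKM in LA, and Ucp3 in 2, at 0.03 and 0.06 FPKM with NTP.

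The adenine nucleotide translocators and the phosphate carrier supply ATP synthase with its substrates. Slc25a5 was 224 FPKM in both Vehicle libraries, 277 and 299.9 in PA, 227 and 247 in PA+NTP, 277 and 247 in LA, and 212 and 222 in LA+NTP. Both PA libraries lay above both Vehicle libraries. Its log2 fold changes of 0.40 in PA (SE 0.07, adjusted p = 3.81e-04), 0.27 in LA, -0.34 in PA+NTP against PA and -0.31 in LA+NTP against LA passed the test and missed the fold threshold. They changed little with the GC trend removed (0.41, 0.29, -0.37 and -0.31). These values are uncertain, since 67.1% of the 31-base sequences of Slc25a5 also occur in transcripts of 13 other genes. Slc25a4, the muscle and heart form, stayed between 28.2 and 34.5 FPKM with log2 fold changes from -0.17 to 0.04 as fitted, and Slc25a3 stayed between 189.6 and 224. With the GC trend removed Slc25a4 was at 0.15, 0.19, -0.34 and -0.23, and passed only in PA+NTP against PA (adjusted p = 0.0102). The ratio of Slc25a5 to Slc25a4 was 6.81 ± 0.458 in Vehicle, 9.05 ± 0.238 in PA, 7.99 ± 0.0952 in PA+NTP, 8.02 ± 0.736 in LA and 6.69 ± 0.268 in LA+NTP in the deposited FPKM. The log2 difference of this ratio was 0.40 in PA and 0.24 in LA as fitted, and 0.26 and 0.10 with the GC trend removed.

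**Figure D4:**
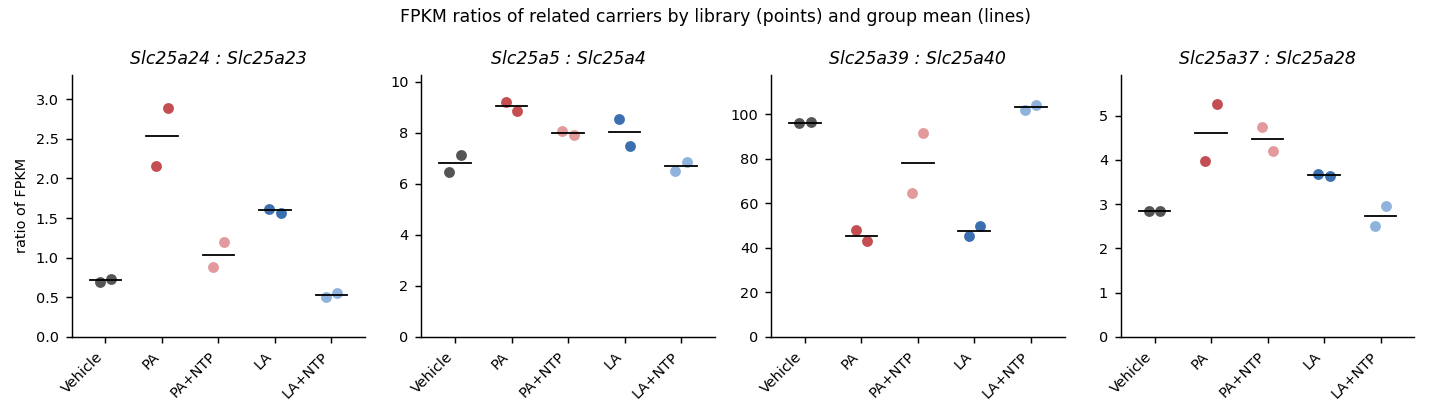
Ratio of deposited FPKM, with no GC trend removed, between related carriers in each library (points) with group means (lines), axes from 0. The ratio of Slc25a24 to Slc25a23 is highest in PA, at 2.16 and 2.89, and that of Slc25a39 to Slc25a40 lies between 42.9 and 49.6 in PA and LA and between 64.8 and 104 elsewhere.

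Pyruvate enters the matrix through a complex of Mpc1 and Mpc2. Mpc1 was 152 and 149 FPKM in Vehicle, 149.7 and 149.8 in PA, 136 and 137 in PA+NTP, 188 and 163 in LA, and 158 and 154 in LA+NTP. Mpc2 was 43.7 and 35.3 FPKM in Vehicle, 43.5 and 42.1 in PA, 33.8 and 34.1 in PA+NTP, 50.7 and 44.3 in LA, and 40.4 and 41.3 in LA+NTP. Both subunits were lowest in PA+NTP and highest in LA, and neither was called. Without the fold threshold both passed in LA (0.27 for Mpc1, 0.32 for Mpc2), in PA+NTP against PA (-0.19 and -0.39) and in LA+NTP against LA (-0.22 and -0.26). With the GC trend removed Mpc2 was called in PA+NTP against PA (-0.62, SE 0.10, adjusted p = 4.38e-04). It also passed, under the fold threshold, in PA (0.37), LA (0.54) and LA+NTP against LA (-0.52), at adjusted p from 0.00125 to 0.0126. Mpc1 passed in none of the 4 comparisons with the trend removed. Mpc1 shares 29.0% of its 31-base sequences with other genes, mainly Mpc1-ps, and its ratio to Mpc2 was between 3.50 and 4.02 in all group means.

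Slc25a1 exports citrate for fatty acid synthesis. It measured 63.8 and 57.3 FPKM in Vehicle, 42.6 and 41.8 in PA, 54.9 and 56.9 in PA+NTP, 46.8 and 42.5 in LA, and 67.9 and 64.3 in LA+NTP. The PA and LA libraries lay below all the others. Its log2 fold changes of -0.49, -0.39, 0.35 and 0.52 in the 4 comparisons all passed the test without reaching the fold threshold. At a GC content of 59.1% none remained with the GC trend removed, at -0.02, 0.13, -0.16 and -0.12, with the sign turned in the last 3. The dicarboxylate carrier Slc25a10 (4.52 to 8.32 FPKM) and the oxoglutarate carrier Slc25a11 (17.8 to 26.1 FPKM) passed in the same 4 comparisons without a call, and neither passed in any with the GC trend removed. In LA+NTP against LA Slc25a10 lay just under the fold threshold (0.58). There it was called in 4 of the 11 alternatives that keep this threshold, such as library-size scaling (0.62). Slc25a21, which carries 2-oxoadipate in lysine breakdown, was 0.86 and 0.71 FPKM in Vehicle, 0.42 and 0.78 in PA, 0.31 and 0.25 in PA+NTP, 1.02 and 1.26 in LA, and 0.81 and 0.58 in LA+NTP. Both PA+NTP libraries were the lowest of the 10. Slc25a21 was called lower in PA+NTP than in PA (-0.99, SE 0.36, adjusted p = 0.0370) and than in Vehicle (-1.46, SE 0.35, adjusted p = 0.0160). The call against PA was lost with the GC trend removed (-0.76, adjusted p = 0.127) and without PA replicate 2 (-0.38), PA+NTP replicate 1 (-1.13, adjusted p = 0.0668) or PA+NTP replicate 2 (-0.87, adjusted p = 0.134). The call against Vehicle was lost without Vehicle replicate 1, Vehicle replicate 2 or PA+NTP replicate 2 (adjusted p 0.0580 to 0.123).

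Among the amino acid and carnitine carriers, only Slc25a22 was called. Slc25a22 brings glutamate into the matrix and measured 9.62 and 10.2 FPKM in Vehicle, 7.24 and 8.32 in PA, 14.6 and 11.1 in PA+NTP, 6.33 and 6.64 in LA, and 12.2 and 11.6 in LA+NTP. Every NTP library was above every Vehicle library, and every PA and LA library below. It was higher in PA+NTP than in PA by 0.64 (SE 0.11, adjusted p = 3.29e-04) and in LA+NTP than in LA by 0.80 (SE 0.11, adjusted p = 3.45e-05). The GC content of Slc25a22 is 57.4%, and with the GC trend removed neither remained called (0.22 and 0.27, adjusted p = 0.130 and 0.0581). The first also fell under the fold threshold without PA replicate 1 (0.55) or PA+NTP replicate 1 (0.46).

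Slc25a13, the liver aspartate/glutamate carrier of the malate-aspartate shuttle and the urea cycle, was 19.9 and 20.4 FPKM in Vehicle, 23.9 and 25.4 in PA, 19.1 and 19.0 in PA+NTP, 22.3 and 19.5 in LA, and 17.3 and 16.6 in LA+NTP. Slc25a15, which exchanges ornithine for citrulline in the urea cycle, was 12.2 and 11.6 FPKM in Vehicle, 16.3 and 15.6 in PA, 13.3 and 11.7 in PA+NTP, 14.5 and 15.4 in LA, and 12.9 and 11.6 in LA+NTP. Slc25a20, which carries acylcarnitines to fatty acid oxidation, was 16.9 and 18.0 FPKM in Vehicle, 19.6 and 20.4 in PA, 17.4 and 15.3 in PA+NTP, 20.6 and 18.3 in LA, and 17.4 and 16.7 in LA+NTP. All 3 were higher in both PA libraries than in any Vehicle or PA+NTP library, by less than the fold threshold. In PA against Vehicle the log2 fold changes were 0.33 for Slc25a13 (adjusted p = 0.00213), 0.45 for Slc25a15 (adjusted p = 4.87e-04) and 0.23 for Slc25a20 (adjusted p = 0.0405), and with the GC trend removed 0.29, 0.43 and 0.31. In PA+NTP against PA they were -0.43, -0.40 and -0.35, and -0.41, -0.40 and -0.45 with the trend removed, all past the test. In LA against Vehicle they were 0.10, 0.37 and 0.20, and only that of Slc25a15 passed as fitted (adjusted p = 0.00222). With the trend removed they were 0.05, 0.35 and 0.29, and those of Slc25a15 (adjusted p = 0.00858) and Slc25a20 (adjusted p = 0.0279) passed. In LA+NTP against LA they were -0.34, -0.33 and -0.23, and -0.26, -0.28 and -0.31 with the trend removed, all past the test. None of the 3 passed in PA against LA (adjusted p = 0.0585, 0.600 and 0.867).

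The remaining carriers of this group were not called. Slc25a12, the second aspartate/glutamate carrier, lay between 9.73 and 12.9 FPKM, the glycine carrier Slc25a38 between 4.28 and 7.59, the branched-chain amino acid carrier Slc25a44 between 12.3 and 20.2, and the basic amino acid carrier Slc25a29 between 0.11 and 0.47. Slc25a44 passed without the fold threshold in all 4 comparisons (-0.32, -0.47, 0.39 and 0.40), and with the GC trend removed only in LA (-0.24, adjusted p = 0.0233).

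The largest group carries cofactors, nucleotides, glutathione and metals. Slc25a42 brings coenzyme A into the matrix. It was 3.80 and 3.39 FPKM in Vehicle, 1.92 and 1.84 in PA, 3.57 and 3.05 in PA+NTP, 2.19 and 2.40 in LA, and 4.07 and 4.31 in LA+NTP. The 4 libraries with an FFA alone lay below the other 6. Slc25a42 fell in PA by 0.91 (SE 0.13, adjusted p = 9.70e-05) and in LA by 0.60 (SE 0.13, adjusted p = 0.00190). It was higher in PA+NTP than in PA by 0.76 (SE 0.13, adjusted p = 3.27e-04) and in LA+NTP than in LA by 0.83 (SE 0.12, adjusted p = 6.16e-05). With the GC trend removed (GC content 56.2%) the PA call was kept at -0.59 (adjusted p = 0.00331) and the others were not, at -0.25, 0.41 and 0.41. The LA call, just past the threshold, was also lost without Vehicle replicate 1 (-0.52) or LA replicate 1 (-0.53).

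Slc25a39, which imports glutathione, was 193 and 197 FPKM in Vehicle, 125 and 138 in PA, 183 and 197 in PA+NTP, 139 and 128 in LA, and 222 and 220.0 in LA+NTP. As for Slc25a42, the libraries with an FFA alone were lowest. It was called in LA+NTP against LA (0.69, SE 0.07, adjusted p = 1.75e-06), with log2 fold changes of -0.54 in PA, -0.51 in LA and 0.47 in PA+NTP against PA under the fold threshold. At a GC content of 59.7% these became 0.01, -0.04, 0.04 and -0.07 with the GC trend removed. Its homologue Slc25a40, at 2.01 to 3.22 FPKM, with a GC content of 39.7% and 14.0% of its 31-base sequences shared with another gene, passed without the fold threshold with the opposite sign in PA (0.58), LA (0.53) and LA+NTP against LA (-0.44), and in none of them with the trend removed. In the deposited FPKM the ratio of Slc25a39 to Slc25a40 was 96.2 ± 0.0662 in Vehicle, 45.5 ± 3.59 in PA, 78.2 ± 19.0 in PA+NTP, 47.5 ± 3.04 in LA and 103 ± 1.24 in LA+NTP. Its log2 differences of -1.11 in PA, -1.03 in LA, 0.78 in PA+NTP against PA and 1.13 in LA+NTP against LA as fitted were -0.27, -0.12, -0.08 and -0.01 with the GC trend removed.

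The pyrimidine nucleotide carrier Slc25a36 was scarce, at 0.47 and 0.54 FPKM in Vehicle, 0.77 and 0.67 in PA, 0.33 and 0.40 in PA+NTP, 0.62 and 0.45 in LA, and 0.25 and 0.38 in LA+NTP. Each NTP library was below each library with an FFA alone. It was called lower in PA+NTP than in PA (-1.02, SE 0.32, adjusted p = 0.0169) and in LA+NTP than in LA (-0.78, SE 0.31, adjusted p = 0.0473). Both calls were lost with the GC trend removed (adjusted p = 0.0929 and 0.407). The first was also lost without PA replicate 1, PA replicate 2 or PA+NTP replicate 1 (adjusted p 0.0528 to 0.0987), and the second without any of 6 libraries (adjusted p 0.0537 to 0.313), namely Vehicle replicate 1 or 2, PA replicate 1 or 2, LA replicate 1 and LA+NTP replicate 1. In addition, 13.6% of its 31-base sequences are shared with another gene. Its relative Slc25a33, at 15.7 to 21.6 FPKM, passed without the fold threshold in PA (0.44) and LA (0.31), and was called in PA with the trend removed (0.68, SE 0.11, adjusted p = 4.13e-04). In that fit it also passed, under the fold threshold, in LA (0.55), PA+NTP against PA (-0.41) and LA+NTP against LA (-0.50).

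The mitoferrins bring iron to the matrix. Slc25a37 was highest with PA+NTP, at 51.2 and 55.4 FPKM against 33.5 to 45.2 in the other groups, and passed the test there against PA (0.25, adjusted p = 0.00845) without a call. Slc25a28 (8.61 to 13.8 FPKM) passed in all 4 comparisons (-0.52, -0.48, 0.31 and 0.42), and its estimates were 0.03, 0.12, -0.28 and -0.33 with the GC trend removed. The last of these passed the test with the opposite sign (adjusted p = 0.0345). Further carriers of the group were the folate carrier Slc25a32, the S-adenosylmethionine carrier Slc25a26, the NAD carrier Slc25a51, the peroxisomal carrier Slc25a17 and Slc25a16. They ranged from 3.80 FPKM for Slc25a32 to 39.7 for Slc25a17, and none was called.

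Of the carriers with no substrate assigned here, Slc25a47 is known for its near restriction to liver. It was 2.36 and 2.41 FPKM in Vehicle, 1.14 and 0.86 in PA, 1.75 and 0.67 in PA+NTP, 2.80 and 2.06 in LA, and 2.86 and 1.94 in LA+NTP. All 4 libraries with palmitate lay below all 6 without it. Slc25a47 fell in PA by 1.28 (SE 0.38, adjusted p = 0.0130) and was not called in LA (0.08). PA was also below LA by 1.36 (SE 0.37, adjusted p = 0.0321), and this call was lost when any 1 library of the Vehicle, PA or LA groups was left out (adjusted p 0.0520 to 0.270). The call against Vehicle was lost without Vehicle replicate 2 (-1.26, adjusted p = 0.0590) or PA replicate 2 (-1.03, adjusted p = 0.157), and with the GC trend removed (-0.87, adjusted p = 0.0864), but was kept with a replicate block and the GC trend removed together (-0.83). Other hepatocyte transcripts, Apoa1, Ttr and Hnf4a, were lower in the same comparison as given above, and their part in the Slc25a47 result was not tested.

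Slc25a43 was at 0.26 and 0.36 FPKM in Vehicle, 0.39 and 0.25 in PA, 0.76 and 0.89 in PA+NTP, 0.40 and 0.39 in LA, and 0.52 and 0.76 in LA+NTP, from 6 to 49 counts. The PA+NTP libraries were highest, with LA+NTP replicate 2 level with the lower of them. It was called higher in PA+NTP than in PA (1.39, SE 0.46, adjusted p = 0.0237), a call lost without PA replicate 2 (1.02, adjusted p = 0.253) or PA+NTP replicate 2 (1.16, adjusted p = 0.133) and with the GC trend removed (1.08, adjusted p = 0.0989). DESeq2 (1.36, adjusted p = 0.0814) and edgeR on counts thinned to the smallest library (1.14, adjusted p = 0.216) did not call it either. Slc25a46, an outer membrane protein of mitochondrial dynamics, was 14.8 and 14.9 FPKM in Vehicle, 18.8 and 19.6 in PA, 15.9 and 15.5 in PA+NTP, 19.5 and 19.8 in LA, and 13.9 and 14.5 in LA+NTP. The libraries with an FFA alone were highest. Its log2 fold changes of 0.41, 0.45, -0.35 and -0.51 passed the test under the fold threshold, and at a GC content of 40.7% they were 0.11, 0.13, -0.07 and -0.10 with the GC trend removed, none past it. Slc25a45 lay between 4.41 and 7.39 FPKM, and Slc25a34, Slc25a35, Slc25a48 and Slc25a53 between 0.09 and 0.65, and none was called.

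The FFAs were also compared with each other, at their different concentrations. Slc25a23 and Slc25a47 were the 2 carriers called in PA against LA, where 3.23% of all genes were called in either direction. For Slc25a23 the difference was -0.83 (SE 0.08, adjusted p = 3.68e-05), kept without any single library and at -0.87 with the GC trend removed. In PA+NTP against Vehicle 2 carriers were called, Slc25a23 and Slc25a21, both lower, against 2.85% of all genes. Slc25a47 was not called there (-1.02) but was by DESeq2 (-1.02, adjusted p = 0.0490) and by edgeR with a replicate block (-1.10, adjusted p = 0.0178). In LA+NTP against Vehicle edgeR called 0 carriers and 0.0922% of all genes. At an unadjusted p under 0.05 there were 5 carriers, and DESeq2 and limma called 0. The change with NTP under PA, set against the change under LA, was called for 0 carriers and 0% of all genes by edgeR, with 4 carriers at an unadjusted p under 0.05 and 0 called by DESeq2 or limma. Shares of all genes at that unadjusted p are not given here, so these counts are not read as particular to carriers. For Slc25a23 the change under PA minus that under LA was -0.19, and for Ucp2 -0.25, on the log2 scale.

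Over the 45 carriers tested, the log2 fold change followed transcript GC content, with a Spearman rho of -0.68 in PA, -0.69 in LA, 0.71 in PA+NTP against PA and 0.77 in LA+NTP against LA, across genes that share these libraries. In LA+NTP against LA 14 of the 15 carriers with a GC content of at least 55% were above 0, with a median of 0.63, and 1 of the 8 under 45%, with a median of -0.49. In PA the medians were -0.52 and 0.31. With the GC trend removed rho was -0.23, -0.07, 0.20 and 0.09, and the medians of the 15 GC-rich carriers lay between -0.04 and 0.04. The removal takes out this same trend over all genes, so the smaller values follow from the step and are not a separate result. The calls that remained in that fit were those of Slc25a23 and Slc25a42 in PA, Slc25a23 in LA+NTP against LA, Ucp2 in all 4 comparisons and Slc25a14 in PA and in PA+NTP against PA, joined by Mpc2 and Slc25a33.

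**Figure D5:**
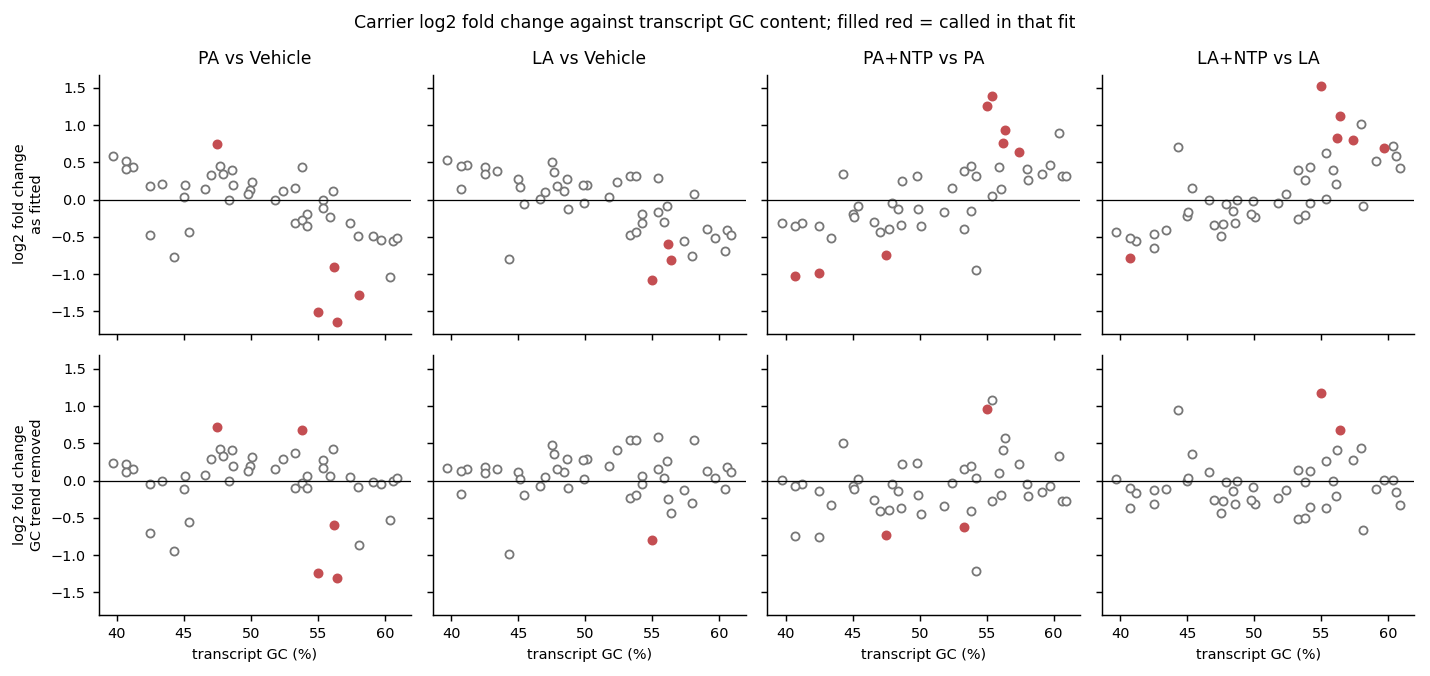
Log2 fold change of the 45 carriers against transcript GC content (%), as fitted (top) and with the GC trend removed (bottom), in 4 comparisons; filled red points were called in that fit. The points slope down in PA and LA and up in the NTP comparisons in the top row, and lie on both sides of 0 across the range of GC content in the bottom row.

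Enzymes that work with the carriers were read from fixed lists, which hold few genes each. Of all genes tested, 6.00% were called higher and 8.92% lower in PA, 3.53% and 7.11% in LA, 8.74% and 5.11% in PA+NTP against PA, and 11.7% and 7.57% in LA+NTP against LA. Of the 6 carnitine shuttle enzymes, Cpt1c was the 1 called, in all 4 comparisons. Cpt1c, the form known from brain, was 1.26 and 1.49 FPKM in Vehicle, 0.46 in both PA libraries, 0.99 and 0.64 in PA+NTP, 0.57 and 0.81 in LA, and 1.23 and 1.43 in LA+NTP, with log2 fold changes of -1.55, -0.97, 0.76 and 0.93. With the GC trend removed its PA call was kept (-1.16, adjusted p = 0.00550). Among 12 pyruvate entry enzymes, Dld, the shared dehydrogenase subunit, was called in all 4 comparisons (0.77, 0.72, -0.84 and -0.86) and in none with the trend removed (0.47, 0.39, -0.55 and -0.45). Pdk2, which inhibits pyruvate dehydrogenase, was lower in PA (-0.94) and LA (-0.59) and higher in LA+NTP than in LA (0.71), and kept the PA call (-0.59). Pdp1, the phosphatase that reactivates the complex, was lower in both NTP comparisons (-0.65 and -0.64), and neither call was kept. In all, 1 enzyme of this list was called higher and 1 lower in each FFA, 0 and 2 in PA+NTP against PA, and 1 and 2 in LA+NTP against LA.

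Of 7 urea cycle enzymes, Oat, which makes and uses ornithine, was higher in PA (0.85) and lower in both NTP comparisons (-0.62 each), and kept the first 2 calls with the GC trend removed (0.82 and -0.60). Otc was higher in PA (0.63) and lower in PA+NTP than in PA (-0.61), and kept neither call. This list had 2 genes called higher and 0 lower in PA, 0 in LA, 0 higher and 2 lower in PA+NTP against PA, and 1 in each direction in LA+NTP against LA. With the trend removed Asl was also called lower in PA+NTP than in PA (-0.67, adjusted p = 9.86e-06). Of 12 malate, aspartate and citrate enzymes, Me3 was lower in both NTP comparisons (-1.35 and -1.14), at 0.08 to 0.36 FPKM, and Gpd1 was called lower in PA. Neither kept a call with the trend removed. Among 19 other mitochondrial transporters, Tspo (-0.73 in LA, 0.66 in PA+NTP against PA and 0.99 in LA+NTP against LA) and Sfxn4 (-0.89 in PA, 1.01 in PA+NTP against PA) were each called in more than 1 comparison. Sfxn4 kept its calls with the trend removed (-0.97 and 1.06), and Tspo did not, while Mtch1 was called lower in LA+NTP than in LA with the trend removed alone (-0.63, against 0.13 as fitted). Counts of higher and lower calls in this list were 1 and 1 in PA, 1 and 1 in LA, 2 and 0 in PA+NTP against PA, and 1 and 1 in LA+NTP against LA.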

How the data were processed

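The members and lists were chosen with earlier results of these data known. RSEM gene quantification followed alignment by the authors with HISAT and Bowtie2. The labels name the build mm10 but no tool versions. For each library the deposited tables hold an expected count per gene, not normalized between libraries, and an FPKM, in which the authors divided by gene length and library size. Genes under 0.01 FPKM are left out of a library's table and were taken as 0. Replicate numbers follow the labels, from which the numbers in the deposited file names differ. Symbols come from the RefSeq table of GRCm38.p6, which matched 17998 gene IDs directly and 11 by accession, and GC content from GENCODE M21 transcripts for 98.4% of genes.

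The main test used the rounded expected counts in edgeR 4.0.16 (R 4.3.3), with all 10 libraries, 1 factor of 5 groups, TMM, filterByExpr (14097 genes kept, 3958 dropped) and the quasi-likelihood F test. The fold threshold of 1.5 is that of the study's methods, and their tool, NOISeq, was not run. With 2 libraries a group, an exact permutation test of a single gene cannot go below 0.333. The GC trend was removed with loess (span 0.4) as offsets. Other alternatives were DESeq2 1.42.0, library-size scaling, other filters, limma 3.58.1 on the log2 scale of the deposited FPKM plus 1 or 0.1, fits of only the groups compared, a replicate block, thinning to 13142555 counts and leaving out each library. The scripts were tested on simulated data. Values of every library are given for members called in any of the 4 main comparisons, the most abundant member of each role in Vehicle, and 11 members with known liver roles, and for enzymes those called in at least 2 comparisons are named. Protein sequences were not used here, and 1 carrier and 1 transporter of the fixed lists are counted but not reported by name.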

Additional observations from a re-analysis of the deposited data

Results flagged for a closer look

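PA and LA differed for 2 carriers by a direct test between the FFA groups. Slc25a23 was lower in PA than in LA by a log2 fold change of -0.83 (SE 0.08, adjusted p = 3.68e-05, edgeR), with FPKM of 21.1 and 17.9 in PA and 34.0 and 34.2 in LA. Slc25a47 was lower in PA than in LA by -1.36 (SE 0.37, adjusted p = 0.0321), with 1.14 and 0.86 FPKM in PA and 2.80 and 2.06 in LA, and its call was lost when any 1 of 6 libraries (each of Vehicle, PA and LA) was left out. The FFAs were given at different concentrations, and groups of 2 libraries allow no check for an outlying library.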

How the results depend on the processing

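None of the 22 calls in the 4 main comparisons changed sign under the 12 alternatives or the 10 fits without a library, though differences that were not called did, such as Slc25a39 in LA (-0.51, and 0.04 with the GC trend removed). DESeq2 kept 19 of these calls, without Slc25a21 (adjusted p = 0.0633) and Slc25a43 (0.0814) in PA+NTP against PA and Slc25a36 (0.0917) in LA+NTP against LA, library-size scaling 21 and fits of only the groups compared 20. Library-size scaling moved the split of calls in LA+NTP against LA from 5 higher and 1 lower to 6 and 0. Without the fold threshold the counts of called carriers were 23 in PA, 21 in LA, 28 in PA+NTP against PA, 26 in LA+NTP against LA, 5 in PA+NTP against Vehicle and 5 in PA against LA. Under limma on log2(FPKM + 1), which shrinks changes of scarce genes, they were 3 in PA, 1 in LA, 2 in PA+NTP against PA, 1 in PA+NTP against Vehicle and 1 in PA against LA, and on log2(FPKM + 0.1) 1 in PA against LA. With the GC trend removed they were 1 in LA, 3 in PA+NTP against PA and 2 in LA+NTP against LA, the same counts as with a replicate block and the GC trend removed together. A filter at a mean FPKM of 1 tests fewer carriers and gave 4 in PA+NTP against PA and 1 in PA+NTP against Vehicle. Thinning gave 5 in PA+NTP against PA, 1 in PA+NTP against Vehicle and 1 in PA against LA. In the 4 main comparisons, shares of all genes are given above without the fold threshold and with the GC trend removed. For the other counts here and below no such share is given, so a changed count is not read as particular to carriers.

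Without 1 library, the counts ranged from 4 to 7 in PA, from 2 to 6 in LA, from 5 to 8 in PA+NTP against PA, from 5 to 8 in LA+NTP against LA, from 1 to 3 in PA+NTP against Vehicle and from 1 to 2 in PA against LA, where a lone library is assumed to vary like the others. The count in LA was 5 without Vehicle replicate 2 and 6 without LA replicate 2, that in PA+NTP against PA was 5 without PA replicate 2 or PA+NTP replicate 1, that in PA+NTP against Vehicle was 1 without either Vehicle library or PA+NTP replicate 2, and that in PA against LA was 1 without any of 6 libraries (each of Vehicle, PA and LA). The labels' replicate numbers are shared across groups, but deviations of same-numbered libraries correlated at -0.069 to 0.127, so they were not treated as pairs. The replicate block gave 6 carriers in PA against 5 without it, with Slc25a40 added, and 3 in PA+NTP against Vehicle against 2, with Slc25a47 added. It kept all 22 calls of the main comparisons.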
